A study of Mus musculus with 43 samples.

Results

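Cortical astrocytes from a mouse model of Down syndrome were set against those from a mouse model of Fragile X syndrome, in 10 of the 43 RNA-seq libraries of the study. The labels call 4 libraries DS (numbers 19, 21, 32 and 39) and 6 libraries FXS (numbers 17, 24, 28, 29, 31 and 38), and describe them as biological replicates. The cells were isolated from the cortex of 7-day-old pups by immunopanning, in which antibodies bound to a dish hold the wanted cells, and then kept 12 days in serum-free culture. All 10 carry the batch label 1. Genes with an FPKM (fragments scaled to transcript length and to library depth) of at least 1 in 4 or more of the 10 libraries were compared on the log2(FPKM + 0.5) scale, which left 12442 of 24537 genes. The labels give the disorder, and not the strain, the allele, the promoter of any transgene or the pooling of animals. The Down syndrome lists used here are those of Ts65Dn, a mouse with an extra copy of parts of chromosomes 16 and 17, which is an assumption about these animals. Wild-type (WT, n = 6) and Rett syndrome (RTT, n = 6) libraries of the same table are given as a reference for single genes.

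Down syndrome comes from an extra copy of human chromosome 21, whose genes lie in the mouse mainly on chromosome 16. Fragile X syndrome comes from loss of FMRP, the RNA-binding protein encoded by Fmr1, which represses translation of many neuronal and glial messages. Astrocytes take up glutamate, supply lipids and secrete factors that act on synapses, and both disorders have been studied for what their astrocytes secrete. A difference between the 2 groups can come from either one, so WT and RTT levels are printed beside many of the main genes. The strain of each group is not in the labels, so an effect of strain cannot be told apart from one of the disorder, and it was not tested.

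Depth, estimated from the steps between low values, was 25.7 to 37.6 M reads in DS and 16.5 to 55.6 M in FXS. The libraries DS 32 and FXS 31 stood apart on the first principal component (36.0% of the variance) and each correlated best with the other. In these, transcripts over 8 kb lay lower than the mean of the library's own group (medians of -0.57 and -0.34 on the log2 scale). Those under 1 kb lay higher than that mean (0.52 and 0.38). The second component (26.5%) had the 4 DS libraries on one side and the 6 FXS libraries on the other. Astrocyte markers were present in both groups, 48 of 50 passing the filter, with Gfap at 720 FPKM ± 195 (SD, n = 4) in DS and 687 ± 190 (SD, n = 6) in FXS. Of 18 microglial markers 1 passed, and of 14 endothelial markers 3.

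The genes that define the models separated the groups first. Fmr1 (chromosome X, 68678536 to 68717963, GRCm38) stood at 14.3, 12.2, 8.93 and 14.1 FPKM in DS 19, 21, 32 and 39, and at 0.967 to 2.21 FPKM (median 1.46) in FXS. Every DS library lay above every FXS library, and the WT (12.0 to 17.1) and RTT (10.2 to 15.6) libraries lay at the DS level. The difference was 2.66 on the log2 scale (SE 0.20, limma adjusted p = 2.12e-05). Its relatives Fxr1 (-0.12, SE 0.09) and Fxr2 (-0.20, SE 0.12) gave adjusted p-values of 0.622 and 0.506. Of 21 measured FMRP family members and partners, Fmr1 was the 1 that passed (4.76%, against 0.86% of all genes called higher). The list's median was -0.04 against -0.06 over all genes tested.

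**Figure D1:**
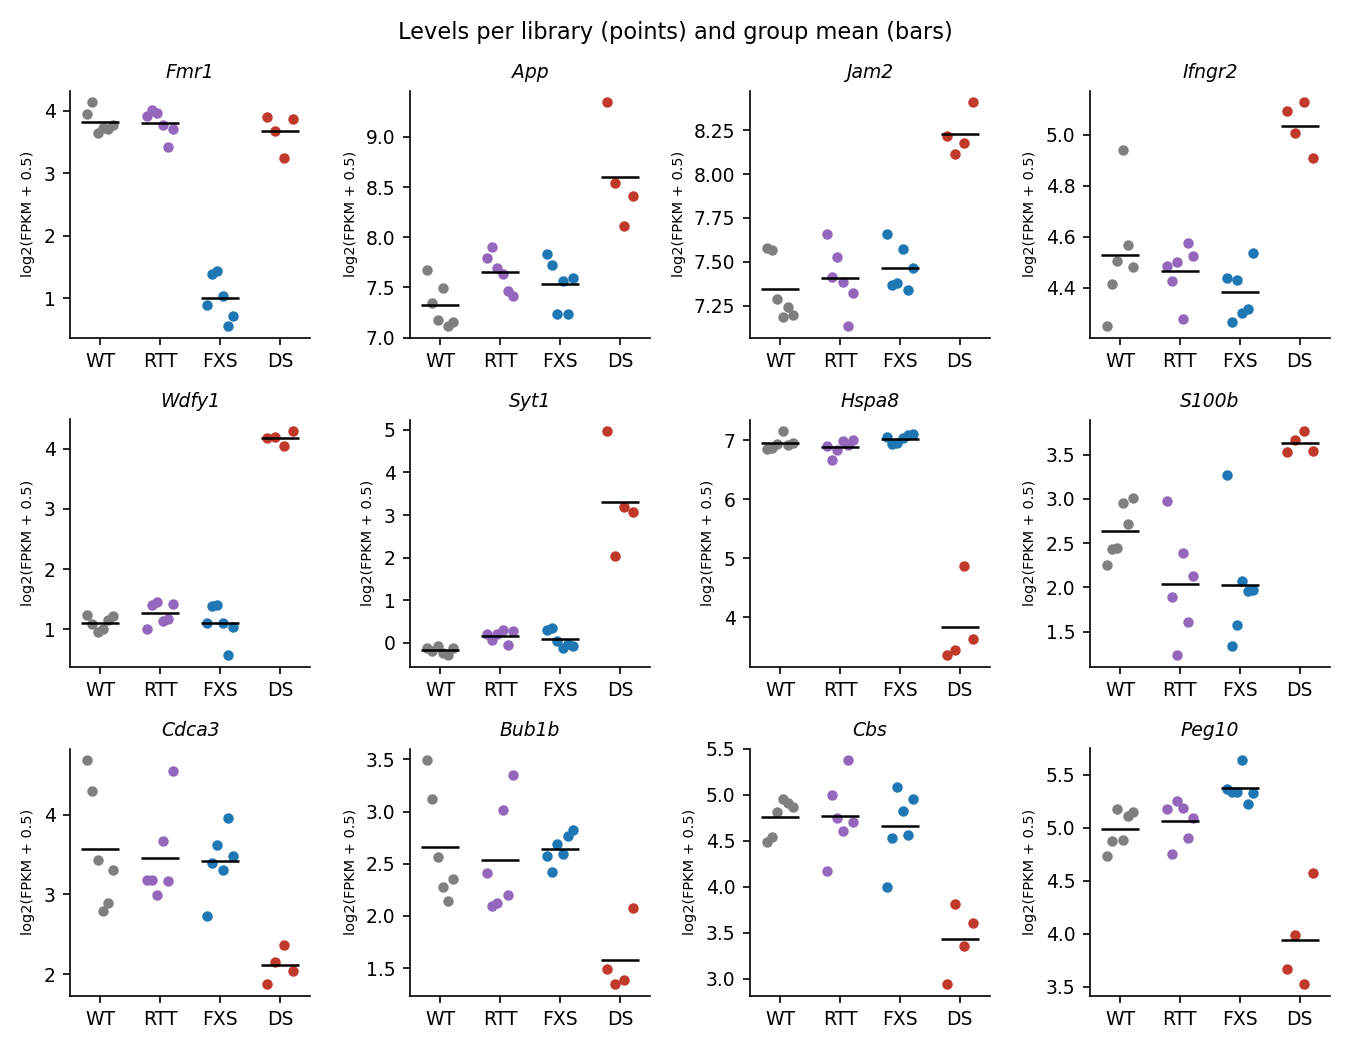
Levels of 12 genes as log2(FPKM + 0.5) (vertical axes, each with its own range) in the WT, RTT, FXS and DS libraries; points are libraries and bars are group means. Fmr1 is low in the 6 FXS libraries, while for App, Jam2, Wdfy1, Syt1, Hspa8 and Cbs the 4 DS libraries are the ones that lie away from the other 3 groups.

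App encodes the amyloid precursor protein and lies in the triplicated segment (chromosome 16, 84952666 to 85175255). It reached 652, 371, 276 and 341 FPKM in DS 19, 21, 32 and 39, against 150 to 227 (median 191) in FXS. The groups did not overlap, DS 19 was the highest, and WT (138 to 203) and RTT (170 to 239) lay at or near the FXS level. App rose by 1.07 (SE 0.22, limma adjusted p = 0.0328), which is 2.10-fold on this scale. The call was lost without DS 19, DS 21, FXS 24, FXS 28, FXS 29, FXS 31 or FXS 38, each in turn, with adjusted p-values of 0.0511 to 0.113 and differences of 0.82 to 1.11.

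Across all genes tested, 200 of 12442 passed an adjusted p of 0.05 (1.61%), of which 107 were higher in DS (0.86%) and 93 lower (0.747%). Scaling by quantiles moved the share of higher calls from 53.5% to 66.2%. Groups did not overlap in 542 genes (4.36%), and 1695 (13.6%) had an unadjusted p under 0.05. The count of calls depended on single libraries: 76 genes passed without DS 21, 107 without DS 19 or FXS 38, 116 without FXS 28 and 130 without FXS 29. Of the 200 genes, the WT mean lay nearer to FXS than to DS in 186 and the RTT mean in 185. In 108 of the 200 every DS library lay outside the range of all libraries of the other 3 groups, and FXS stood apart in this way in 3 genes (Fmr1, Btaf1 and As3mt, the last of which is counted in both). These are counts over genes selected for the difference between DS and FXS, and describe only those genes.

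**Figure D2:**
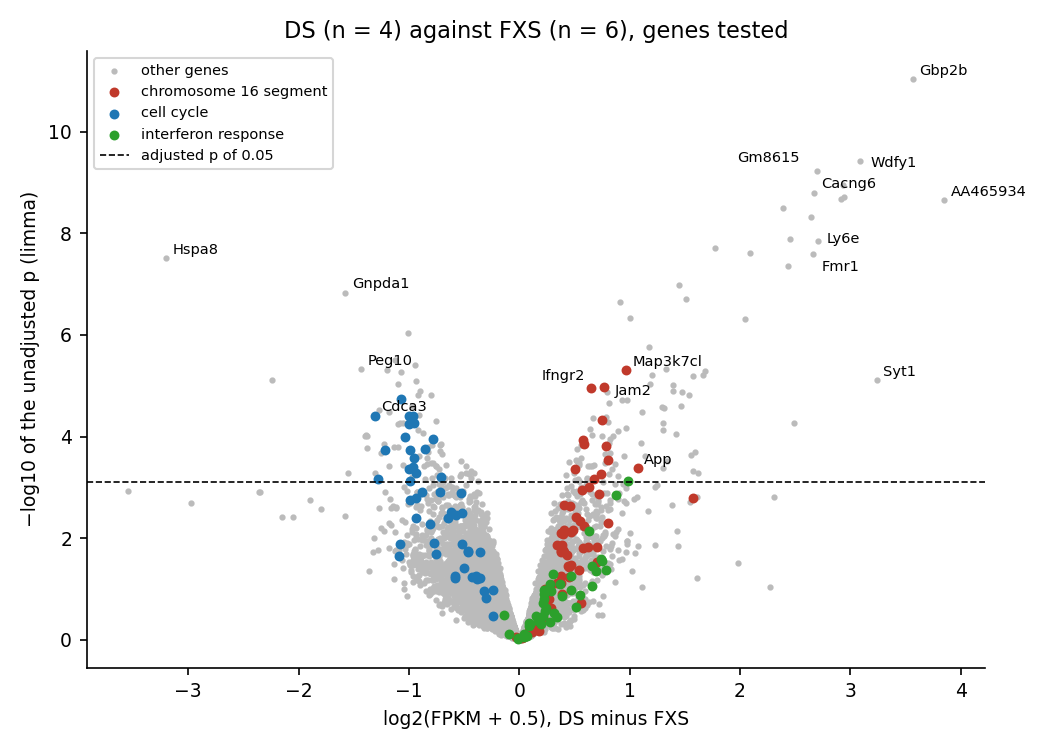
Each point is 1 of the 12442 genes tested, with the difference in log2(FPKM + 0.5) between DS and FXS (horizontal) against −log10 of the unadjusted limma p (vertical); the dashed line is the smallest value that passed an adjusted p of 0.05. Of the 64 chromosome 16 segment genes 63 lie to the right of 0, and the 48 cell cycle genes lie to the left, and among the points past the threshold AA465934, Gbp2b and Syt1 lie farthest to the right and Hspa8 farthest to the left.

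The list of genes in the triplicated segment of chromosome 16 lay higher in DS almost throughout. Of 89 listed genes 87 were found among the deposited rows; 64 of these passed the filter on low values, and the other 23 reached at most 1.88 FPKM, with 2 of them at 0 in all 10 libraries. Of the 64, 63 lay above 0, where 37.1% of all genes did, and the median difference was 0.44 against -0.06 over all genes tested. That median is a ratio of 1.36, where 3 copies against 2 would give 1.5. The quartiles were 0.33 and 0.59, and 50 of the 64 lay between 0.2 and 0.8. Of the 64, 12 rose past the threshold (18.8%, against 0.86% of all genes), 0 fell, 19 lay above FXS in every DS library (1.96% of all genes did), and 42 had an unadjusted p under 0.05 (13.6% of all genes did). The summed level of the list ran from 3417 to 4299 FPKM in DS and from 2292 to 2753 in FXS, with WT at 2475 to 3052 and RTT at 2456 to 3032. Between positions 84718281 and 97962627, which span the list, 12 of 69 tested genes passed (17.4%), against 4 of 324 on the rest of the chromosome (1.23%). The count of 12 was 4 without DS 21 and 7 without DS 19, FXS 24, FXS 28, FXS 29 or FXS 38. It was 2 without both DS 21 and FXS 24 (added after seeing the data), 24 in the fit of all 22 libraries, and 1 to 39 over all alternatives run, while the median stayed between 0.38 and 0.49 under every alternative run.

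**Figure D3:**
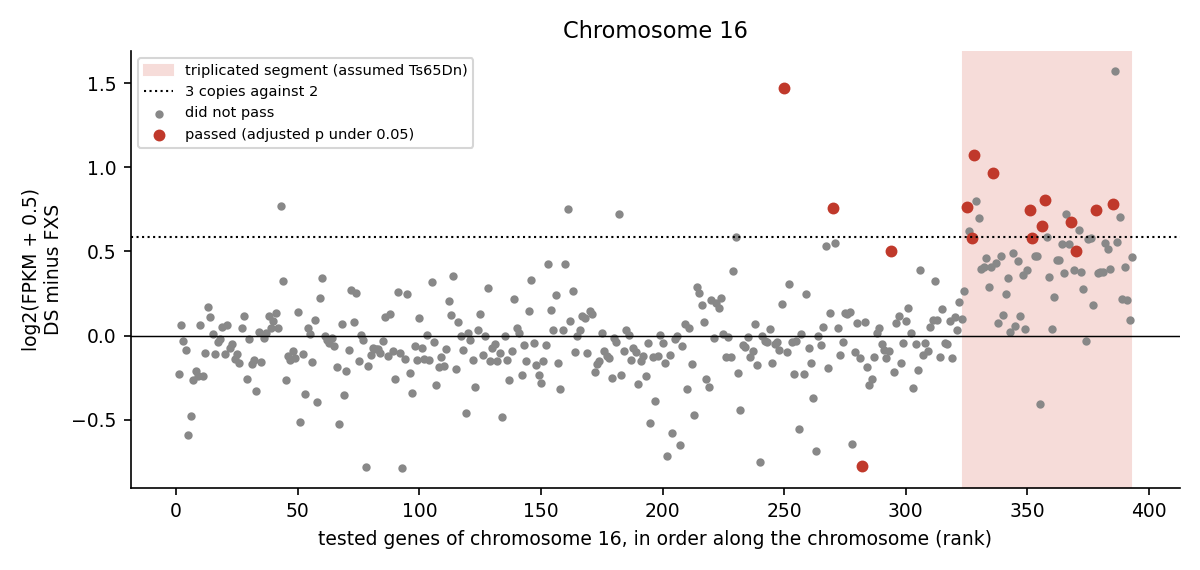
Difference in log2(FPKM + 0.5) between DS and FXS (vertical) for the tested genes of chromosome 16 in their order along it (horizontal, rank); the shaded stretch is the segment assumed to be triplicated and the dotted line is the value for 3 copies against 2. Outside the shading the points scatter around a median of -0.05, and inside it 67 of 69 lie above 0 with a median of 0.44.

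Members of the segment differed in size and in evenness. Jam2, a junctional adhesion molecule (chromosome 16, 84774123 to 84826380), stood at 297, 277, 289 and 340 FPKM in DS 19, 21, 32 and 39 and at 162 to 202 (median 171) in FXS. The 4 DS libraries lay close together and clear of FXS and of WT (145 to 191), and Jam2 rose by 0.77 (SE 0.10, limma adjusted p = 0.00306). Map3k7cl, a small protein related to the kinase TAK1, reached 19.2, 26.3, 22.1 and 20.6 FPKM in DS against 9.38 to 12.4 in FXS, without overlap. It rose by 0.97 (SE 0.12, adjusted p = 0.00198 by limma), while in RTT it spread from 8.28 to 28.8 FPKM. Dscr3 (0.75, SE 0.12), which belongs to a complex recycling cargo from endosomes, and Gabpa (0.58, SE 0.10), an ETS transcription factor, also rose, with limma adjusted p-values of 0.00836 and 0.0149. Gabpa lost its call without DS 21 (adjusted p = 0.0812).

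Rcan1, an inhibitor of the phosphatase calcineurin, stood at 73.8, 75.3, 99.8 and 76.2 FPKM in DS 19, 21, 32 and 39 and at 37.8 to 64.8 (median 50.9) in FXS. The groups did not overlap, and DS 32 lay above the other DS libraries. Rcan1 rose by 0.68 (SE 0.15, limma adjusted p = 0.0449). The call was kept without FXS 31 and lost when any other single library was left out (adjusted p-values of 0.0569 to 0.126). Several well-known genes of the segment did not pass. The superoxide dismutase Sod1 was at 248 FPKM ± 81.02 in DS (SD, n = 4) and 175 ± 35.4 in FXS (SD, n = 6), a difference of 0.47 (SE 0.20, limma adjusted p = 0.309). The kinase gene Dyrk1a gave 0.37 (SE 0.12, adjusted p = 0.171), the splicing factor gene Son 0.04 (SE 0.24, 0.964) and Olig2, which specifies the oligodendrocyte lineage, 0.04 (SE 0.26, 0.964). Son ranged from 20.7 to 52.8 FPKM in DS, its lowest library being DS 32, and its sign turned when FXS 31, DS 21 or DS 39 was left out (-0.08, -0.03 and -0.14).

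The chromosome 17 list also lay higher in DS, with 2 calls. Of 38 genes 26 passed the filter and 22 of those lay above 0 (84.6%, against 37.1% of all genes), with a median of 0.37. The 2 that rose past the threshold (7.69%, against 0.86% of all genes) were Rnaset2a (1.33, SE 0.17) and Rnaset2b (0.95, SE 0.18), lysosomal ribonucleases. The 2 genes share 78.9% and 57.2% of their 50-base stretches with other transcripts, mainly each other, so the reads of one could be counted for the other and their values are uncertain. Rnaset2b lost its call without DS 21, FXS 28, FXS 29 or FXS 38, with adjusted p-values of 0.0548 to 0.0707. The rest of chromosome 17 held 20 calls among 573 tested genes (3.49%), and the genome outside both segments 186 among 12344 (1.51%).

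The segment carries genes for receptor subunits of interferons and interleukin 10. Interferons signal through paired receptor chains and JAK kinases to STAT factors, which switch on antiviral and antigen-presentation genes. Ifngr2, the second chain of the interferon gamma receptor, stood at 33.7, 31.6, 34.5 and 29.6 FPKM in DS 19, 21, 32 and 39 and at 18.7 to 22.7 (median 20.3) in FXS. The groups were far apart relative to their spread, and Ifngr2 rose by 0.65 (SE 0.09, limma adjusted p = 0.00315). Il10rb rose by 0.58 (SE 0.10, adjusted p = 0.0175 by limma), from 11.4 FPKM ± 1.27 in FXS (SD, n = 6) to 17.3 ± 1.37 in DS (SD, n = 4). It lost the call without DS 19 (adjusted p = 0.0605) or DS 21 (0.0707). Ifnar2, a chain of the type I interferon receptor, reached 34.6, 29.9, 39.8 and 23.9 FPKM in DS against 15.6 to 21.9 in FXS. It rose by 0.74 (SE 0.16, limma adjusted p = 0.0398) without overlap, and the call was lost when DS 19, DS 21, DS 32, FXS 24, FXS 28, FXS 29 or FXS 38 was left out (adjusted p-values of 0.0679 to 0.124). Its partner chain Ifnar1 gave 0.47 (SE 0.15) with an adjusted p of 0.166. Ifngr2, Il10rb and Ifnar2 were the 3 calls among 19 measured receptors, kinases and STATs (15.8%, against 0.86% of all genes called higher), and the list's median was 0.11.

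The genes that these receptors are known to switch on gave few calls. Of 54 interferon response genes 41 passed the filter and 37 lay above 0, with a median of 0.27 against -0.06 over all genes. One member rose past the threshold (2.44%, against 0.86% of all genes), and the summed levels overlapped, at 430 to 562 FPKM in DS and 307 to 585 in FXS. That member was Psmb9, a subunit of the immunoproteasome (10.1, 6.55, 9.27 and 4.98 FPKM in DS 19, 21, 32 and 39). FXS lay at 2.29 to 5.04 FPKM, overlapping DS 39. Psmb9 rose by 0.99 (SE 0.22, limma adjusted p = 0.0477), and without DS 19, 21 or 32 or FXS 24, 28, 29, 31 or 38 in turn the adjusted p was 0.0773 to 0.146.

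Immune genes outside that list also differed. Gbp2b, a guanylate-binding protein of the interferon-inducible GTPases (chromosome 3, 142594816 to 142619179), was at 5.43, 6.44, 4.29 and 5.73 FPKM in DS 19, 21, 32 and 39. It is listed at 0 in all 6 FXS libraries and all 6 WT libraries, and at no more than 0.011 FPKM in RTT, so no fold is given. Its limma adjusted p was 1.14e-07. H2-Q6, a non-classical MHC class I gene, read 5.20, 4.64, 3.79 and 2.81 FPKM in DS and at most 0.207 in FXS, a difference of 2.94 (SE 0.18, adjusted p = 3.41e-06 by limma). It shares 35% of its 50-base stretches with neighbouring family members, so its level is uncertain. H2-T23 rose by 0.90 (SE 0.19, limma adjusted p = 0.0416), from 1.01 FPKM ± 0.317 in FXS (SD, n = 6) to 2.30 ± 0.597 in DS (SD, n = 4). Its call was lost without any 1 of DS 19, DS 21, DS 32, FXS 28, FXS 29, FXS 31 and FXS 38 (adjusted p-values of 0.0666 to 0.156), and in WT it stood at 1.82 FPKM ± 0.687 (SD, n = 6). These were the 3 calls among 21 measured genes of MHC class I and antigen processing (14.3%, against 0.86% of all genes called higher), the third being Psmb9, and the list's median was 0.09. Outside the list, H2-Q2 (2.93) and H2-Q8 (2.91) were also called higher without overlap, and both passed the filter only through DS. H2-Q8 read 5.05, 4.51, 3.68 and 2.72 FPKM in DS 19, 21, 32 and 39, close to H2-Q6 in each, so these 2 entries may hold the same reads. Gbp2b, H2-Q6 and H2-T23 entered the test only through the DS libraries, and with 1 DS library left out Gbp2b and H2-Q6 fell short of the filter and were not tested.

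The promoter of Gbp2b is shown because the gene was at several FPKM in DS and listed at 0 in FXS, and because its family is known for a response element to interferon, the ISRE. It covers 250 bases before to 50 after the start in RefSeq (GRCm38.p6, chr3:142594597-142594896, plus strand), with capitals marking the single match to GAAA followed after any 2 bases by GAAA, searched on both strands.

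Gbp2b: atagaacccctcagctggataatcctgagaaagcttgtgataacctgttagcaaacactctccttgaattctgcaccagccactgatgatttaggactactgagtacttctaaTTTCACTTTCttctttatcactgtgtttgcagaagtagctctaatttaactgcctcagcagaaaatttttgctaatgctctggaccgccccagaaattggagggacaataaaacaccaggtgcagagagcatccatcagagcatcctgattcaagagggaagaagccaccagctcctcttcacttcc

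This motif occurred in 3.49% of 27025 promoters of the same length and in 16 of the 33 interferon response genes that passed the filter and had a promoter in the table (48.5%). A match is a description of letters, and binding was not measured.

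Complement was called in 2 of 8 measured members of 22 (25%, against 0.86% of all genes called higher). Of the 8, 6 lay above 0 and 2 below, with differences from -2.05 to 1.54. In 1 of them every DS library lay below every FXS library (2.4% of all genes did). The fit of all 22 libraries called 2 higher and 1 lower. The summed levels overlapped, at 59.8 to 113 FPKM in DS and 60.7 to 121 in FXS. Cd59a, a membrane protein that blocks the final complement complex, stood at 15.3, 10.6, 11.6 and 8.84 FPKM in DS 19, 21, 32 and 39 and at 2.49 to 5.29 (median 3.51) in FXS. The groups did not overlap, WT (1.74 to 2.88) lay with FXS or below it, and Cd59a rose by 1.54 (SE 0.22, limma adjusted p = 0.00378). C1s1, a serine protease of the classical pathway, rose by 1.29 (SE 0.19, adjusted p = 0.00557 by limma) and shares 35.1% of its 50-base stretches, mainly with its copy C1s2, so its value is uncertain. Ly6e, an interferon-inducible surface protein that restricts entry of some viruses, stood at 50.2, 73.8, 45.01 and 32.9 FPKM in DS and at 5.62 to 8.26 in FXS. It rose by 2.71 (SE 0.19, limma adjusted p = 1.47e-05), and WT (10.1 to 18.99) and RTT (5.83 to 15.8) lay between the 2 groups or with FXS.

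Genes of the cell cycle lay lower in DS. Of 50 listed genes 48 passed the filter, all 48 lay below 0 where 62.9% of all genes did, and the median difference was -0.78 against -0.06. Of the 48, 18 fell past the threshold (37.5%, against 0.747% of all genes), 0 rose, and in 22 every DS library lay below every FXS library (2.4% of all genes). The summed level was 366, 319, 354 and 393 FPKM in DS 19, 21, 32 and 39 and 512 to 651 (median 601) in FXS. The same sum spread from 401 to 1149 FPKM in WT and from 404 to 939 in RTT, so DS lay below every library of the other groups and FXS lay within their range. The count of 18 was 6 without DS 21, 7 without DS 19, 8 without FXS 38 and 10 without FXS 28. It was 1 without both DS 21 and FXS 24, each with the transcripts of a single sex, a setting chosen after the data were seen. The fit of all 22 libraries gave 8, and all alternatives run gave 1 to 37. The median stayed between -0.89 and -0.69 in every alternative run.

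**Figure D4:**
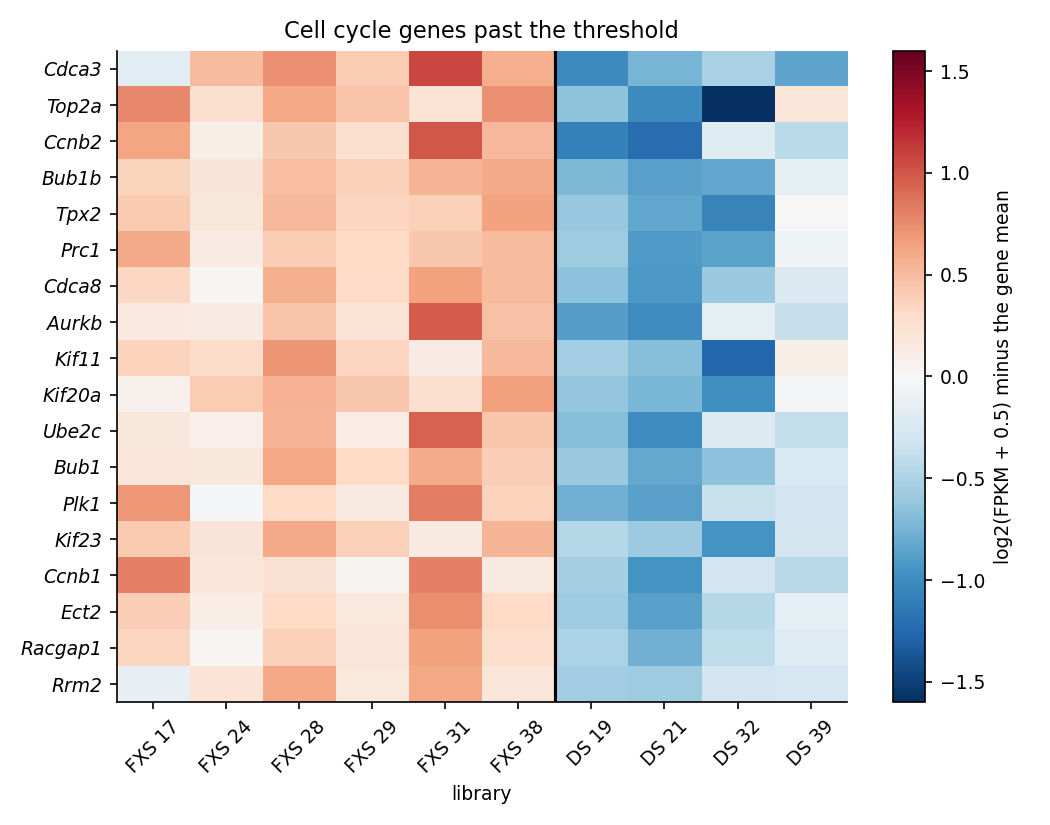
The 18 cell cycle genes past the threshold (rows, ordered by difference) in the 6 FXS and 4 DS libraries (columns), coloured by log2(FPKM + 0.5) minus the gene's mean over the 10 libraries. DS 21 and DS 32 are the bluest columns and DS 39 the palest of the DS libraries, and FXS 24 and FXS 29 are paler than FXS 28 and FXS 31.

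Several of the genes that fell act at mitosis. Bub1b, a checkpoint kinase that holds cells until chromosomes are attached (chromosome 2, 118598202 to 118641592), stood at 2.31, 2.04, 2.12 and 3.70 FPKM in DS 19, 21, 32 and 39 and at 4.85 to 6.58 (median 5.75) in FXS. The groups did not overlap, and it fell by 1.07 (SE 0.15, limma adjusted p = 0.00436). Cdca3, a regulator of mitotic entry, stood at 3.16, 3.95, 4.67 and 3.62 FPKM in DS against 6.13 to 15.04 in FXS and 6.45 to 25.3 in WT. It fell by 1.30 (SE 0.20, adjusted p = 0.00754 by limma), and every DS library lay below every library of the other 3 groups. Cdca8, a subunit of the chromosomal passenger complex, fell by 1.00 (SE 0.16, limma adjusted p = 0.00759) and kept its call in all 23 alternatives. Bub1 (-0.96, SE 0.15), Kif23 (-0.95, SE 0.15), a kinesin of cytokinesis, and Prc1 (-1.001, SE 0.16), which bundles the central spindle, fell as well. Bub1 passed the filter only through FXS. Ccnb2, the B-type cyclin, fell by 1.22 (SE 0.23, limma adjusted p = 0.0199), and lost its call without DS 19, DS 21 or FXS 38 (adjusted p-values of 0.0568 to 0.0864). Top2a, the DNA topoisomerase of dividing cells, stood at 10.9, 8.36, 5.38 and 20.04 FPKM in DS and at 20.3 to 29.9 in FXS. It fell by 1.28 (SE 0.28, limma adjusted p = 0.0449), and with 1 library left out, DS 39 apart, the adjusted p was 0.0596 to 0.169.

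Promoters of the called cell cycle genes are shown because such genes are known to be repressed together outside division through a CHR element, often with CCAAT boxes. Each covers 250 bases before to 50 after the start in RefSeq (GRCm38.p6): Bub1b at chr2:118597961-118598260 on the plus strand, Cdca3 at chr6:124829926-124830225 on the plus strand, and Prc1 at chr7:80294201-80294500 on the plus strand. Capitals mark CCAAT (or ATTGG, the same box on the other strand) and the CHR letters TTTGAA.

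Bub1b: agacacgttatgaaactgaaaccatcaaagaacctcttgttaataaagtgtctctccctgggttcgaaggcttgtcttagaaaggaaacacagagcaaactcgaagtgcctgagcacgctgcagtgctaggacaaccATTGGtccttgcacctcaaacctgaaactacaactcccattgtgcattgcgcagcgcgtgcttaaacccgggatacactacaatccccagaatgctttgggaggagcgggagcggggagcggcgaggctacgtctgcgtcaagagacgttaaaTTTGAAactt

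Cdca3: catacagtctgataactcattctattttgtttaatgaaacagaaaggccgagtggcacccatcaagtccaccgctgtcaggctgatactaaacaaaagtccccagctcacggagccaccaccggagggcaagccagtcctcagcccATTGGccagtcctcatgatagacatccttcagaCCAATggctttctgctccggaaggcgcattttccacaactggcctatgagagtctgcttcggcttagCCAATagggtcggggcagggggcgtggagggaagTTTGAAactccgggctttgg

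Prc1: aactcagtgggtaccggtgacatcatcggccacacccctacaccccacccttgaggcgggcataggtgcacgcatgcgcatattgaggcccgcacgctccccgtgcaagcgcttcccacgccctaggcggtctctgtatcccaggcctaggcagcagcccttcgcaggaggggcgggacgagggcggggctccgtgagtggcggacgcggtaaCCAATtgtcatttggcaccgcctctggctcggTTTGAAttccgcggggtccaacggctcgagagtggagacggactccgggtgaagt

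Both strands were searched. CCAAT was found in 15 of the 15 called cell cycle genes with a promoter in the table (37.9% of 27025 promoters) and in 31 of the 39 members that passed the filter (79.5%). TTTGAA was found in 12 of the 15 (18.1% of all promoters). These counts describe letters in a window, and the members were called from these data.

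Neighbouring lists held few calls. Of 24 CDK inhibitors and p53 targets 24 passed the filter and 14 lay below 0 (58.3%, against 62.9% of all genes). The 1 that passed the test (4.17%, against 0.747% of all genes called lower) was Pmaip1. This gene, which promotes cell death in response to p53, fell by 1.39 (SE 0.24, limma adjusted p = 0.0132). It stood at 1.23, 0.902, 0.572 and 0.47 FPKM in DS 19, 21, 32 and 39 and at 1.70 to 3.79 in FXS, without overlap, and passed the filter only through FXS. Of 25 cholesterol synthesis genes 23 passed the filter, and all 23 lay below 0 with a median of -0.32, but 0 passed the test by limma, where 12 had an unadjusted p under 0.05 (13.6% of all genes did). The smallest adjusted p was 0.0617, for Cyp51, a demethylase of lanosterol (-0.71, SE 0.16). The fit over all 22 libraries called 1 of the list, and leaving out 1 library called at most 3. The summed level of the list was 753 to 979 FPKM in DS and 957 to 1434 in FXS. The DS range lay within those of WT (746 to 1091) and RTT (725 to 1012).

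Single genes differed by more than the lists did. Wdfy1, an adaptor for Toll-like receptor signalling (chromosome 1, 79702262 to 79776143), stood at 17.7, 17.9, 16.1 and 19.2 FPKM in DS 19, 21, 32 and 39 and at 0.975 to 2.14 (median 1.64) in FXS, with WT and RTT at the FXS level. The groups lay far apart with little spread, and Wdfy1 rose by 3.09 (SE 0.16, limma adjusted p = 2.32e-06), an 8.50-fold difference on this scale. Syt1, a calcium sensor of vesicle release, stood at 31.1, 3.59, 8.56 and 7.93 FPKM in DS against 0.424 to 0.764 in FXS. DS 19 was the highest, and Syt1 rose by 3.24 (SE 0.42, adjusted p = 0.00251 by limma). Cacng6, a calcium channel subunit, rose by 2.67 (SE 0.16, limma adjusted p = 3.41e-06). Scg5, a chaperone of prohormone convertase, was abundant at 209, 145, 255 and 123 FPKM in DS against 40.2 to 71.2 in FXS, and rose by 1.69 (SE 0.21, limma adjusted p = 0.00198). Rnase1, a secreted ribonuclease, gained 2.49 (SE 0.40, limma adjusted p = 0.00891), and without DS 21 the adjusted p was 0.0501. Syt1 and Rnase1 passed the filter only through the DS libraries.

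Some genes fell by more than any list's median. Hspa8, the constitutive heat shock chaperone (chromosome 9, 40801276 to 40805202), stood at 9.72, 10.4, 28.9 and 11.9 FPKM in DS 19, 21, 32 and 39 and at 121.99 to 137 (median 131) in FXS. WT (115 to 142) and RTT (101 to 128) lay at the FXS level, and Hspa8 fell by 3.20 (SE 0.25, limma adjusted p = 2.41e-05). It shares 39.4% of its 50-base stretches with other transcripts, so its value is uncertain. Gnpda1, an enzyme of glucosamine catabolism, fell by 1.58 (SE 0.14, adjusted p = 9.64e-05 by limma) while Gm8615, which shares 44.3% of its 50-base stretches mainly with Gnpda1, rose by 2.70 (SE 0.14). Gm1943 rose by 2.64 (SE 0.17), and 100% of its stretches occur in Wdr70. Peg10, a retrotransposon-derived imprinted gene, stood at 12.2, 15.4, 10.98 and 23.2 FPKM in DS and at 36.9 to 49.4 in FXS. It fell by 1.43 (SE 0.18, limma adjusted p = 0.00198), without overlap. Tnfaip6, which binds hyaluronan in the matrix, fell by 1.196 (SE 0.15, limma adjusted p = 0.00198) and Plvap, a diaphragm protein of endothelial cells, by 1.30 (SE 0.27, adjusted p = 0.0386). Plvap lost its call without DS 19, DS 21, DS 32, FXS 17, FXS 29, FXS 31 or FXS 38, with adjusted p-values of 0.0565 to 0.152.

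Astrocyte identity and function differed in a few genes. Of 48 measured markers 33 lay above 0 (68.8%, against 37.1% of all genes), with a median of 0.09. The 2 that passed the test were 1 higher and 1 lower (2.08% each, against 0.86% and 0.747% of all genes). S100b, a calcium-binding protein of mature astrocytes, stood at 11.1, 12.2, 13.1 and 11.1 FPKM in DS 19, 21, 32 and 39 and at 2.03 to 9.14 (median 3.40) in FXS. It rose by 1.595 (SE 0.30, limma adjusted p = 0.0209) without overlap, and the call was lost without DS 19, DS 21, DS 32, FXS 28 or FXS 38 (adjusted p-values of 0.0533 to 0.0864). Cbs, which converts homocysteine to cystathionine, stood at 7.17, 13.6, 9.78 and 11.7 FPKM in DS against 15.5 to 33.3 in FXS, and fell by 1.23 (SE 0.22, adjusted p = 0.0171 by limma). It lost the call without DS 19 (0.0577) or FXS 38 (0.0501). The glutamate transporter Slc1a2 (0.58, SE 0.20, adjusted p = 0.227), the water channel Aqp4 (0.49, SE 0.18, 0.238), Aldh1l1 (-0.05, SE 0.12, 0.909) and Gfap (0.07, SE 0.22, 0.925) did not pass. Of 28 measured genes on the list of secreted synapse-regulating factors 0 passed by limma and 2 had an unadjusted p under 0.05, where 13.6% of all genes did, and the matrix proteoglycan Bcan gave 0.35 (SE 0.09, adjusted p = 0.0888). Bmp6 stood at 141 FPKM ± 34.6 in DS (SD, n = 4) and 137 ± 20.6 in FXS (SD, n = 6), and Bmp6 (0.02), Igfbp2 (-0.11) and Smoc1 (-0.06) had adjusted p-values of 0.966, 0.896 and 0.973. Bmp4, a ligand of the same family, gave 1.38 (SE 0.35) with 8.74 to 17.8 FPKM in DS and 1.96 to 8.38 in FXS, and an adjusted p of 0.0834.

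Lists of reactive astrocyte genes held 1 call. All 11 measured pan-reactive genes lay above 0, with a median of 0.34, and 0 passed by limma, where 4 had an unadjusted p under 0.05 (13.6% of all genes did). Cd44, the hyaluronan receptor, gave 0.56 (SE 0.13, adjusted p = 0.0574). The 11 measured A1 genes had a median of 0.34, and H2-T23 was the 1 call among them (9.09%, against 0.86% of all genes higher). The 9 measured A2 genes had a median of -0.22 with 5 below 0 and 0 calls by limma, 2 having an unadjusted p under 0.05. Of these, Cd14 gave 1.24 (SE 0.28, adjusted p = 0.0536) and Ptx3 gave -0.50 (SE 0.17, 0.228). Cd14 passed the filter only through the DS libraries.

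Markers of other cells also differed between the groups, and their part in the results above was not tested. In bulk RNA, fewer cells of a type and less RNA per cell cannot be told apart. Neuronal markers had a median of 0.08 over 10 measured of 20, with 4 of the 10 below 0. The calls were 3 (30%, against 0.86% of all genes called higher): Syt1, the growth cone protein Gap43 (1.47, SE 0.22, limma adjusted p = 0.00557) and the GABA-synthesising Gad1 (1.42, SE 0.24, 0.0126). Their summed level was 125 to 173 FPKM in DS and 105 to 157 in FXS, and the other 10 reached at most 1.90 FPKM with none at 0 in all 10 libraries. Gad1, which passed the filter only through DS, lost its call without DS 19 or DS 21 (adjusted p-values of 0.0523 and 0.0689). The 8 measured oligodendrocyte markers lay above 0 with a median of 1.503. Mal, a myelin protein and the 1 call among them (12.5%, against 0.86% of all genes called higher), rose by 1.58 (SE 0.33, limma adjusted p = 0.0366). The list summed to 132 to 344 FPKM in DS and 121 to 205 in FXS, and the call of Mal was lost without DS 21, DS 32, FXS 24, FXS 28 or FXS 38 (0.0695 to 0.152). Matn4, the 1 call among 11 measured oligodendrocyte precursor genes (9.09%, against 0.86% of all genes called higher), rose by 1.30 (SE 0.21, limma adjusted p = 0.00891). Of the 11, 9 lay above 0 and 2 below. The summed levels of that list overlapped, at 447 to 714 FPKM in DS and 245 to 564 in FXS. Ciliated and ependymal genes lay below 0 in 26 of 27, with a median of -0.73 and 0 calls by limma, where 11 had an unadjusted p under 0.05 (13.6% of all genes did). Their sum was 360 to 785 FPKM in DS and 561 to 1932 in FXS, where FXS 17 was the highest. The sums in WT (239 to 758) and RTT (199 to 1090) overlapped the DS range. This list and the cell cycle list both lay lower in DS than in FXS. Only for the cell cycle list did the DS sums lie below every WT and RTT library. Y-linked Eif2s3y gave -1.90 (SE 0.47, adjusted p = 0.0738), with DS 21 at 0.

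**Figure D5:**
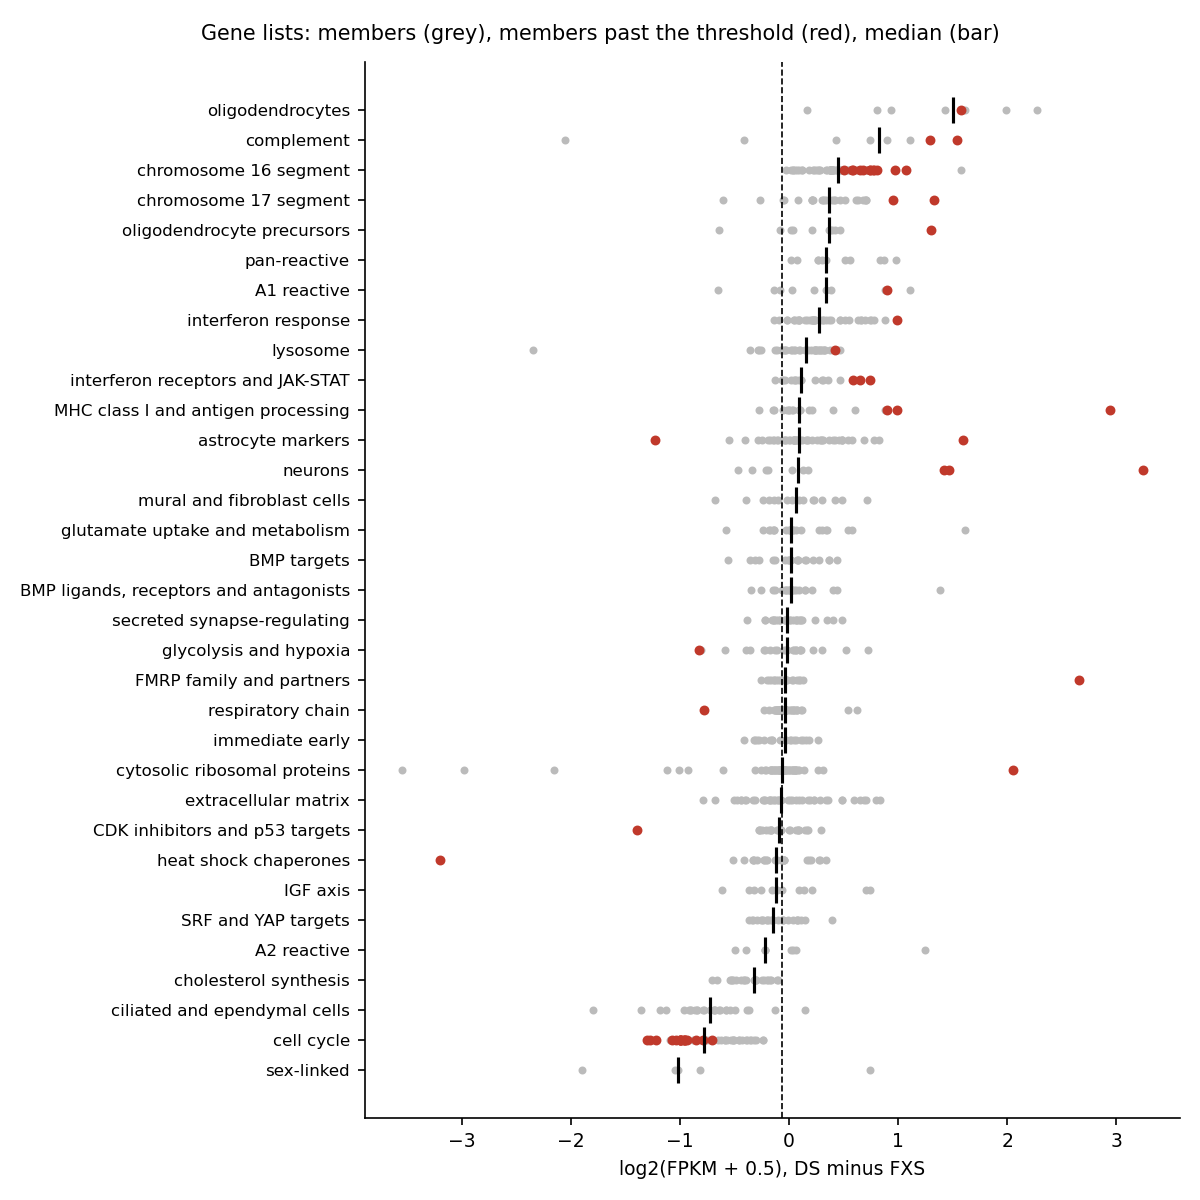
Differences in log2(FPKM + 0.5) between DS and FXS (horizontal) for the measured members of each list with at least 5 of them (rows); red points passed an adjusted p of 0.05, the bar is the median and the dashed line is the median of all genes tested. Cell cycle genes lie at the left with 18 red points, the chromosome 16 segment at the right with 12, and most other lists centre near the dashed line.

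Metabolic lists held single calls. Of the measured members, 1 of 25 glycolysis and hypoxia genes (4%) and 1 of 52 respiratory chain genes (1.92%) fell past the threshold, against 0.747% of all genes. In the other direction, 1 of 57 cytosolic ribosomal protein genes (1.75%) and 1 of 38 lysosomal genes (2.63%) rose, against 0.86% of all genes. Eno1, a glycolytic enolase, fell by 0.82 (SE 0.15, limma adjusted p = 0.0209) and shares 26% of its 50-base stretches with copies. It lost the call without DS 21, FXS 28, FXS 29 or FXS 38 (0.0527 to 0.0967). Fau, a ribosomal fusion protein gene, rose by 2.05 (SE 0.20, adjusted p = 0.000269) from a low level, 0.221 to 0.616 FPKM in FXS and 1.88 to 3.97 in DS, with 30% of its stretches shared. It passed the filter only through DS. Of the 57 measured ribosomal protein genes 40 lay below 0 (70.2%, against 62.9% of all genes), with differences from -3.55 to 2.05. Without overlap, 4 fell and 1 rose, where 2.4% of all genes fell and 1.96% rose in this way. Ctsa, a lysosomal carboxypeptidase, rose by 0.43 (SE 0.09, limma adjusted p = 0.041) from 34.4 FPKM ± 2.98 (SD, n = 6) to 46.3 ± 2.87 (SD, n = 4). Without DS 19, 21 or 39 or FXS 17, 24, 28, 29 or 31 its adjusted p was 0.0556 to 0.172. Of the 38 measured lysosomal genes 26 lay above 0 and 12 below, with differences from -2.35 to 0.46. Without overlap, 3 rose and 2 fell (1.96% and 2.4% of all genes did). Atp5g1 of the respiratory chain was at 0.634 to 0.902 FPKM in DS and 1.37 to 2.38 in FXS, a difference of -0.78 (SE 0.15, limma adjusted p = 0.0298). It passed the filter only through FXS, and with 1 library left out, FXS 24 and FXS 31 apart, its adjusted p was 0.0506 to 0.122. BMP target, BMP ligand and receptor, IGF, extracellular matrix, immediate early and SRF and YAP target lists had 0 calls by limma. An unadjusted p under 0.05, which 13.6% of all genes had, was found in 1 of 21, 1 of 23, 1 of 14, 6 of 45, 1 of 21 and 3 of 25 of their measured members.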

How the data were processed

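Expression was deposited by the authors as FPKM, per the file headers, for 24537 genes in 22 libraries of 4 groups, with no depth or counts. STAR 2.5.3a, DESeq2 1.14.1, FastQC 0.11.8, HOMER 4.10.4 and the build mm10 are listed, without roles, in the submitters' processing notes. Whether counting used strand is not given in the sources used here. FPKM values were converted to log2(FPKM + 0.5), with no scaling; the filter was an FPKM of at least 1 in 4 libraries.

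Differences between the 4 DS and 6 FXS libraries were tested in R 4.3.3 by moderated linear models (limma 3.58.1, with a variance trend), two-sided, adjusted by Benjamini-Hochberg over 12442 genes, and fold changes on this scale understate those of low genes. Low values gave estimated depths: 70.5% to 74.5% were whole reads within a tolerance of 0.08, too few for a count test. The fit was tested on simulated data for this comparison: at true log2 changes of 0.5, 1, 2 and 3 it called 34%, 74%, 100% and 98% of 50 genes each, and 12 of 12242 unchanged genes. Near-identical copies were sought as shared 50-base stretches of transcripts, with positions from RefSeq (GRCm38.p6). Python 3.11.15 was used for these.

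Genes named were 18 fixed genes, the 15 called genes that rose most and the 15 that fell most, without overlap and with a mean of at least 2 FPKM, and up to 6 of smallest p past the threshold from each of 35 lists (2 where none passed). Some genes that the rule names are left out of the text. Members, lists and this rule were chosen with earlier results of these data known. Alternatives were pseudocounts of 0.1 and 1, no filter, a filter at 5 FPKM, median of ratios and quantile scaling, all 22 libraries, robust and untrended fits, array weights, a 2-fold minimum, each library left out, and, added after seeing the data, 2 pairs of libraries left out. The numbers of the DS and FXS libraries differ, so no pairing was made.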

Additional observations from a re-analysis of the deposited data

Results flagged for a closer look

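Of 204 group tests of the named genes, 10 had a library whose gap to its nearest neighbour was large against the range of its group, where chance gives about 1 in 20. In FXS 17, Cacng6 (1.89 FPKM) and Msx1 (1.81) lay above the other 5 libraries, and Rps4l (10.3) and D17H6S56E-5 (6.66) below them. In FXS 31, Son (23.4 FPKM) lay below and Tnfaip6 (11.1) above, and in FXS 29 Peg10 (49.4) lay above. In DS 32, Rcan1 (99.8 FPKM) lay above and Aldh1l1 (54.7) below, and in DS 19 D17H6S56E-5 (3.53) lay below. Both DS 32 and FXS 31 are the libraries with low values of long transcripts.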

How the results depend on the processing

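No paired analysis was possible because the DS and FXS libraries share no replicate numbers. Against 200 genes past the threshold (107 higher, 93 lower), the filter at 5 FPKM gave 99 (52 and 47), all 22 libraries 347 (195 and 152), array weights 1350 (488 and 862) and the 2-fold minimum 84 (49 and 35). Leaving out 1 library gave 76 to 252 genes, 37 to 109 of them higher and 39 to 143 lower. Without DS 32 and FXS 31, 70 were higher, and without DS 21 and FXS 24 there were 32 (18 higher, 14 lower). Other settings gave 194 to 234. Of 58 named genes past the threshold all 58 kept their direction in the 23 alternatives and 21 kept the call wherever they were tested, and 36 kept it with each of 10 libraries left out. Signs turned for 7 genes short of the threshold. Scaling by median of ratios gave Aldh1l1 0.00595, quantile scaling gave Smoc1 0.036 and Gfap -0.097, and array weights gave Bmp6 -0.14, Smoc1 0.045 and Aldh1l1 0.089. Without 1 library Olig2 was -0.15 to 0.15, Bmp6 -0.12 to 0.18, Smoc1 -0.44 to 0.34, Son -0.14 to 0.30, Gfap -0.075 to 0.21, Igfbp2 -0.35 to 0.070 and Aldh1l1 -0.10 to 0.097. Without DS 32 and FXS 31 Smoc1 was 0.042 and Aldh1l1 0.099. Without DS 21 and FXS 24 Son was -0.00286, Olig2 -0.059, Igfbp2 0.15 and Gfap -0.14. The cause of these changes was not tested, except that fewer libraries or genes enter some settings by construction. Depth is estimated, so low values carry an unknown counting error.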

Other observations

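Some called genes outside the lists were chosen after their values were seen. Nnt, the mitochondrial transhydrogenase, stood at 37.9 to 46.3 FPKM in DS and 17.7 to 23.1 in FXS (log2 1.00, limma adjusted p = 0.000259), with WT at 25.9 to 30.7. Ifi202b, an interferon-inducible DNA-binding protein, was at 1.24 to 2.98 FPKM in DS, listed at 0 in 5 of 6 FXS libraries and at 0 in all WT libraries, and it passed the filter only through DS. Kitl, the ligand of the Kit receptor, rose by 1.31 (SE 0.20, limma adjusted p = 0.00575) and Gabra2, a GABA receptor subunit, by 1.39 (SE 0.19, 0.00345). Gabra2 was at 1.32 to 3.06 FPKM in DS and 0.302 to 0.557 in FXS, and passed the filter only through DS. A930015D03Rik (1.66) likewise passed the filter only through DS, and it overlaps H2-T23 on chromosome 17. Whether counting used strand is not given in the sources used here, so the reads of these 2 genes may not be separable.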
